A study of Mus musculus with 21 samples.

Results

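Extraembryonic endoderm (XEN) cells from mouse embryos were compared with mouse embryonic fibroblasts (MEF), using 6 of the 21 libraries of a series on chemical reprogramming. All 4 XEN libraries of embryonic origin and both MEF libraries were taken, and expression was given as FPKM, a fragment count scaled by transcript length and library size. The MEF were prepared from E13.5 embryos of the strain C57BL/6J-Tg(GOFGFP)11Imeg/RbrcxICR. CeXEN cells (2 libraries) are XEN cells derived from E3.5 embryos of wild-type ICR mice in the stage 1 medium of the reprogramming protocol, with the small molecules abbreviated VC6TFAE and 20 ng/ml bFGF. eXEN cells (2 libraries) are a single established wild-type ICR line. eXEN 1 was kept in stage 1 medium with VC6TF and 20 ng/ml bFGF, and eXEN 2 in conventional XEN medium. The MEF strain name carries a GFP transgene, and no other allele is named for any group. Strain differs between MEF and XEN, and embryonic stage between MEF and CeXEN, with no stage given for eXEN. Neither can be told apart from cell type. CeXEN and eXEN 1 were also kept in stage 1 medium with small molecules and bFGF. The part of the medium in differences from the MEF was not tested. The labels do not say whether replicates came from separate cultures or embryos, so that p-values measure only the spread between these libraries.

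Both cell types are known for secreting extracellular matrix. XEN cells correspond to the primitive endoderm lineage, whose parietal branch lays down Reichert's membrane, a thick basement membrane built from laminin, collagen IV, nidogen and perlecan. Fibroblasts lay down interstitial matrix, in which fibrillar collagens of types I, III and V are bundled with fibronectin, small leucine-rich proteoglycans and elastic fibres. Both kinds of collagen pass through the same route in the endoplasmic reticulum, where prolyl and lysyl residues are hydroxylated, the triple helix is folded with the chaperone HSP47, and large cargo carriers take it to the Golgi.

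The genes named here were grouped into 10 matrix lists (203 genes) and 8 signalling lists (195 genes). Genes entered with 2 or more of the 6 libraries at FPKM 1 or above, which left 165 matrix genes, 143 signalling genes and 13388 genes in all. Counts below refer to tested members only. Members that entered only through the group where they are high had to differ, and they remain in these counts, as such genes do in the shares of all genes. The counts therefore describe the lists and are not a test of them. The threshold for calling a gene different was an adjusted p under 0.05 (limma, Benjamini-Hochberg over all 13388 genes) and a difference of at least 1 on the log2(FPKM + 1) scale, which understates changes of low genes. A gene was termed shared when its FPKM was at least 10 in each of the 6 libraries, and even when it was shared and differed by less than 1 on that scale.

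The starts of several members show how matrix genes of both cell types are laid out. Col4a1 and Col4a2 encode the 2 chains of the commonest collagen IV and lie head to head on chromosome 8, where the files place Col4a1 at 11198423 to 11312826 and Col4a2 at 11312805 to 11449287 (mm10), so that their 5′ ends overlap by 22 bases on opposite strands. The RefSeq starts on GRCm38.p6 are the same bases. The stretch that holds both starts, chr8:11312801-11312830 on the plus strand, is shown with the first base of Col4a2 and, further right, of Col4a1 in capitals.
Col4a2 and Col4a1 starts: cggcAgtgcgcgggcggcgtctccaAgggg
The 100 bases before the start are shown for the 2 most abundant matrix genes called higher in XEN, the 2 most abundant called lower and 2 even ones, among those whose RefSeq start lies within 10 bases of an annotated start and whose stretch lies outside annotated exons. Capitals mark the letters GGGCGG (a GC box) or CCAAT on either strand.
P4hb, higher, chr11:120573254-120573353, minus strand: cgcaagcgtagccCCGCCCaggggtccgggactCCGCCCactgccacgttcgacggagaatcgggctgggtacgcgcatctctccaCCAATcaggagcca
P4ha2, higher, chr11:54100824-54100923, plus strand: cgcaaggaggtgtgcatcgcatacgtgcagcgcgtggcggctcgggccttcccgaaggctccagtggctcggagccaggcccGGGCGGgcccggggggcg
Bgn, lower, chrX:73483501-73483600, plus strand: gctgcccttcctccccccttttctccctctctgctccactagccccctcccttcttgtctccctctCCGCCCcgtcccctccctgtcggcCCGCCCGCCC
Col3a1, lower, chr1:45311438-45311537, plus strand: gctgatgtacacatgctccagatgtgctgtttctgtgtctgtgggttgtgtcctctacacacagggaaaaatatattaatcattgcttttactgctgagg
Serpinh1, even, chr7:99353240-99353339, minus strand: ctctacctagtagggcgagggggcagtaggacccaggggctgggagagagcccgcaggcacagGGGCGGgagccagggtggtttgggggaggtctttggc
Pxdn, even, chr12:29937936-29938035, plus strand: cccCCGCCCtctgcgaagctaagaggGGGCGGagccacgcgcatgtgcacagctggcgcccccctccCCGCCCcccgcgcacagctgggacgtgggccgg
The Col3a1 stretch alone of these 6 holds none of the 6 letter patterns searched. In the window from 250 bases before to 50 bases after the start, RefSeq held 281 of the 398 members. GGGCGG, on either strand, was in 38.2% of the 27025 genes of the table and in 67.6% of the 281 members. It was in 17 of 21 members called higher in XEN (81.0%), in 74 of 107 called lower (69.2%) and in 21 of 24 even ones (87.5%). AGATAA or TGATAA, the letters that GATA factors bind, were in 21% of all genes and 8.19% of the 281 members. They were in 2 of 21 members called higher (9.52%) and in 11 of 107 called lower (10.3%). TGAGTCA, the letters bound by AP-1, were in 5.95% of all genes, in 6.76% of the 281 members, in 2 of 21 called higher and in 7 of 107 called lower. The TATA box letters TATAAA were in 15.7% of all genes, in 16.0% of the 281 members and in 4 of 21 called higher. The letters GGAATG, bound by TEAD factors, were in 16.6% of all genes, in 14.6% of the 281 members and in 3 of 21 called higher. All patterns were counted on either strand, and matches could overlap. These are matches of letters in a window and not sites.

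The labels were checked against marker genes. Gata4, the endodermal transcription factor, had an FPKM of 0.412 and 0.0307 in the MEF, 441 and 431 in CeXEN, and 424 and 519 in eXEN. Sox17 was at 0.211 and 0 in the MEF and between 148 and 498 in the 4 XEN libraries. Thy1, a fibroblast surface protein, was at 259 and 353 in the MEF and between 0.112 and 3.59 in the XEN libraries, and Prrx1 was at 115 and 133 against 0.0846 to 0.489. Of 13 XEN markers 8 were called higher in XEN (61.5%, against 6.92% of all genes) and none lower. Of 13 fibroblast markers 12 were called lower (92.3%, against 12.0% of all genes).

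Markers of other cell types were summed in each library. The 12 macrophage markers summed to an FPKM of 142.8 and 70.4 in the MEF and of 3.04 to 7.12 in XEN, led by Lyz2 at 92.6 and 30.2 in the MEF, with Ptprc under the filter. The 8 smooth muscle and contractile markers summed to 9899 and 3915 in the MEF and to 13.3 to 107 in XEN. All 8 were called lower in XEN, against 12.0% of all genes, and Acta2 was at 4713 and 2015 in the MEF against at most 0.906. The 13 fibroblast markers summed to 50.4 in CeXEN 2 and to between 3.17 and 7.12 in the other 3 XEN libraries, against 3444 and 11020 in the MEF. CeXEN 2 also had the highest sum of the 8 trophoblast markers, 29.8 against 2.03 to 2.89 in the other XEN libraries. Their part in the results below was not tested, except that counts were repeated without CeXEN 2. In such bulk samples fewer cells of a type and less RNA per cell cannot be told apart.

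Library sums of FPKM ran from 543198 in MEF 2 to 864945 in CeXEN 2. Depth, estimated from the quantifier's bounds at low FPKM, was 0.655 (CeXEN 2) to 1.23 (CeXEN 1) times that of MEF 1. On log2(FPKM + 1), Pearson's r was 0.925 between the MEF libraries, 0.942 within CeXEN, 0.938 within eXEN and 0.670 to 0.729 between XEN and MEF. Of 13388 genes, 927 were called higher in XEN (6.92%) and 1602 lower (12.0%). These counts became 351 and 1133 without MEF 1 and 363 and 1055 without MEF 2, and 739 and 2177 after rescaling each library to an equal sum of FPKM, which moved the median difference of all genes from 0.14 to -0.12.

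Matrix genes as a group were lower in XEN more often than not. Of the 165 tested, 96 were called lower (58.2%, against 12.0% of all genes), 14 higher (8.48%, against 6.92%) and 55 neither, with a median difference of -2.82 against 0.14 for all genes. Either way 110 were called, against 18.9% of all genes. Without CeXEN 2 the counts were 98 lower and 12 higher. The fewest called higher were 7, without either MEF library, and without CeXEN 1 there were 9. Shared genes numbered 45 (27.3%, against 34.1% of all genes) and even ones 23 (13.9%, against 28.8%). The lists differed. Fibrillar collagens, other collagens, elastic fibre genes and matricellular proteins held 40 of the 96 lower calls and no higher one. Laminins and collagen synthesis held 9 of the 14 higher ones, beside 2 lower calls of laminins and 12 of collagen synthesis.

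**Figure D1:**
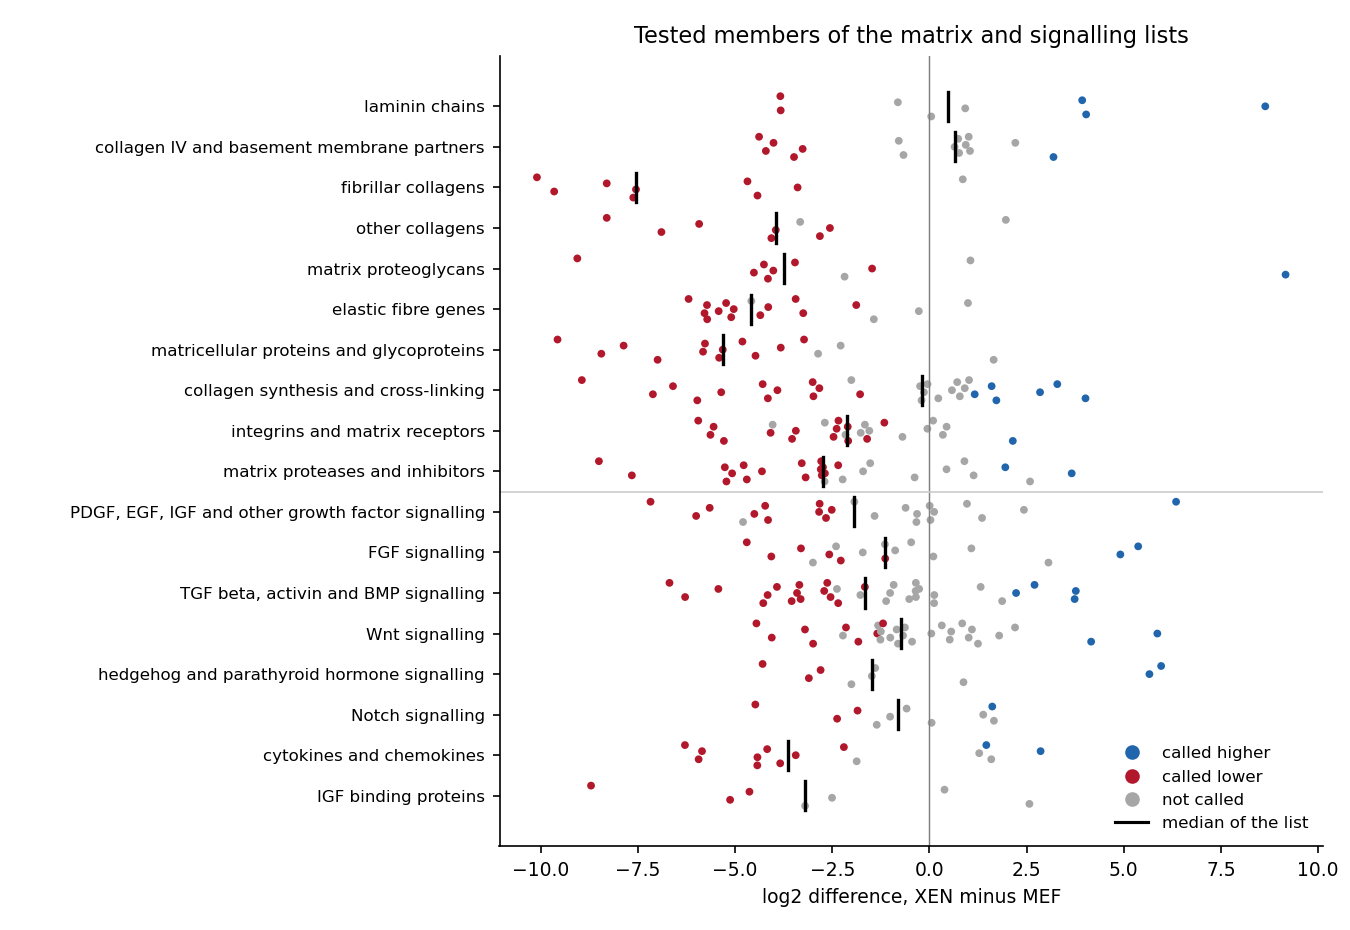
Log2 differences, XEN minus MEF, of the tested members of the 10 matrix lists (above the grey line) and 8 signalling lists (below it), with 1 point per gene, coloured by call, and a black bar at each list's median. Fibrillar collagens lie at a median of -7.55 and laminin chains at 0.48, with Lama1 at 8.64.

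The matrix lists together took 4.71% and 6.55% of all FPKM in the MEF, 3.15% and 2.5% in CeXEN, and 1.90% and 4.43% in eXEN. The means were 5.63% ± 1.30 (SD, n = 2) and 2.99% ± 1.08 (SD, n = 4), and the groups did not overlap. The exact two-sided permutation p was 0.0667, the smallest that 15 splits allow. ESC and CiPSC libraries of the series had 0.422% to 0.512%, so all 6 libraries compared here lay above them. Fibrillar collagens took 0.501% and 1.92% in the MEF and at most 0.00504% in XEN. Laminins took 0.0411% and 0.0559% in the MEF, 0.363% and 0.229% in CeXEN, and 0.514% and 1.56% in eXEN. Genes of collagen synthesis and cross-linking took 0.833% ± 0.2 (SD, n = 2) in the MEF and 0.826% ± 0.127 (SD, n = 4) in XEN. The difference of -0.00778 percentage points was smaller than the spread of either group. This sum covers shifts in both directions, with 6 of the 29 tested genes of the list called higher and 12 lower.

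**Figure D2:**
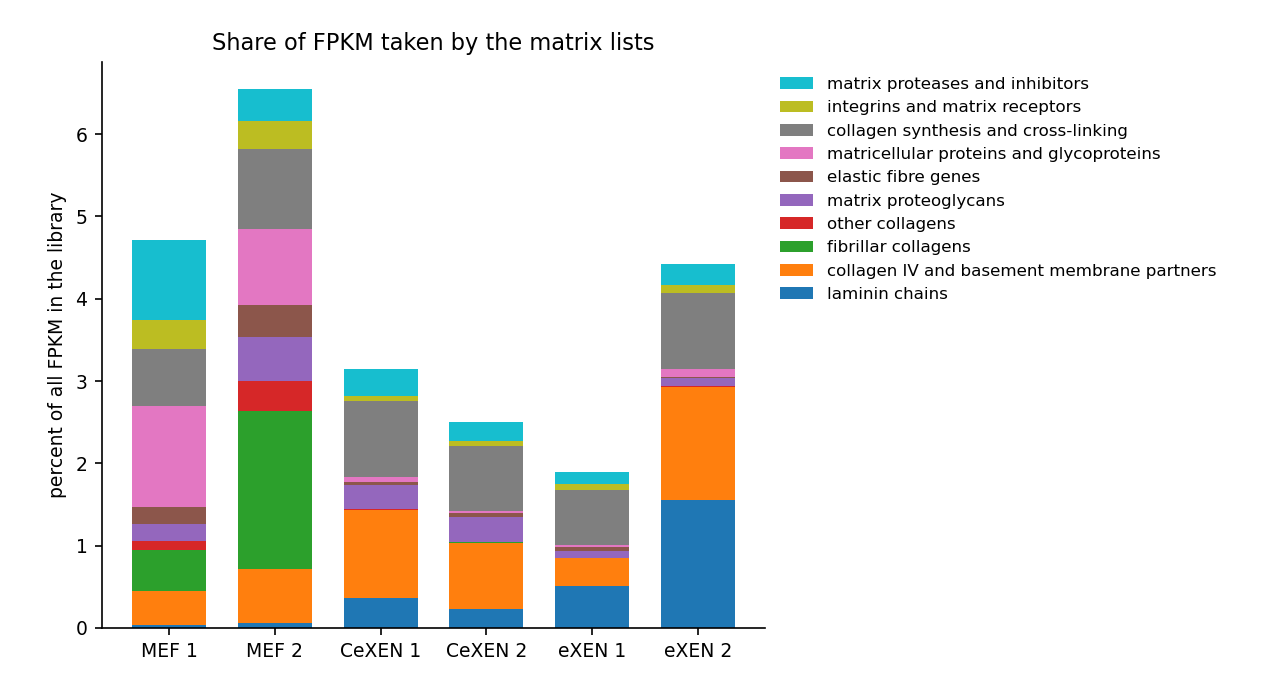
Percent of all FPKM taken by each matrix list, stacked, in the 2 MEF, 2 CeXEN and 2 eXEN libraries. The grey band of collagen synthesis genes spans 0.663% to 0.975% in the 6 libraries, while the green band of fibrillar collagens is seen only in the MEF and the blue laminin band reaches 1.56% in eXEN 2.

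Laminins are trimers of an alpha, a beta and a gamma chain, and laminin-111, the form of Reichert's membrane, is made of the products of Lama1, Lamb1 and Lamc1. Lama1 (chr17:67697265-67822645) had an FPKM of 0.364 and 2.21 in the MEF, 578 and 352 in CeXEN, and 921 and 2587 in eXEN. It rose by 8.64 (SE 0.78) in XEN with an adjusted p of 0.00062 (limma). Lamb1 was at 113 and 93.1 in the MEF, 1033 and 1003 in CeXEN, and 1426 and 4184 in eXEN. It rose by 3.93 (SE 0.59, adjusted p 0.00475). Lamc1 was at 50.1 and 70.7 in the MEF, 746 and 574 in CeXEN, and 945 and 2376 in eXEN. It rose by 4.03 (SE 0.56, adjusted p 0.00339). For all 3 genes every XEN library lay above both MEF libraries. The call of Lamb1 was lost without MEF 1 (adjusted p 0.0593) or MEF 2 (0.0728), and that of Lamc1 without MEF 1 (0.0577). eXEN 2 had the highest value of each of the 3 chains.

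The MEF thus had beta-1 and gamma-1 chain mRNA with little alpha-1 mRNA. Per length, Lama1 stood at 0.00726 and 0.0313 times the level of Lamc1 in the MEF and at 0.614 to 1.09 times in the XEN libraries. Lamb1 stood at 1.32 and 2.25 times Lamc1 in the MEF and at 1.38 to 1.76 times in XEN. Other alpha chains were found in the MEF: Lama2, of muscle and mesenchymal basement membranes, was at 15.3 and 11.5 against at most 0.0152 in XEN (-3.83, SE 0.26, adjusted p 0.000242). Lama4, of vessel walls, was at 20.8 and 57.7 in the MEF, 4.59 and 4.62 in CeXEN, and 0.0766 and 0.168 in eXEN (-3.84, SE 0.87, adjusted p 0.0232), and its call was lost without MEF 1 (0.0973) or MEF 2 (0.213). Lamb2 was even, at 34.4 and 62.9 in the MEF and 15.4 to 44.9 in XEN. In all, 3 of 8 tested laminin chains were called higher (37.5%, against 6.92% of all genes) and 2 lower (25%, against 12.0%). Fewer were called higher without MEF 1 or without MEF 2.

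Collagen IV separated the XEN sources rather than XEN from MEF. Col4a1 had an FPKM of 307 and 295 in the MEF, 2400 and 2364 in CeXEN, and 88.6 and 218 in eXEN. CeXEN thus lay above and eXEN below the MEF, so that its place among the even genes (0.94, 95% interval -2.36 to 4.23) is an average over unlike sources. Col4a2 was at 211 and 243, 1542 and 1492, and 65.0 and 146 in the same order. Set against the MEF one source at a time, with the same 2 MEF libraries in both, Col4a1 was higher in CeXEN by 2.98 (adjusted p 0.00477) and stood at -1.11 in eXEN (adjusted p 0.192). The difference of CeXEN from eXEN was 4.09 (SE 0.43, adjusted p 0.0138, limma with 3 groups) for Col4a1 and 3.95 (SE 0.40, adjusted p 0.0133) for Col4a2. The difference for Col4a1 was 3.44 without eXEN 1 and 4.73 without eXEN 2. The adjusted p was above 0.05 without CeXEN 2 (0.105 and 0.104 for Col4a1 and Col4a2) and without either MEF library, which enter only through the estimate of spread (0.109 for Col4a1 and 0.102 to 0.104 for Col4a2).

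The 2 chains kept step through these changes. Col4a1 stood at 1.46 and 1.21 times Col4a2 per length in the MEF, at 1.56 and 1.59 times in CeXEN, and at 1.36 and 1.49 times in eXEN, while the Col4a1 level ranged from 88.6 to 2400. A further chain, Col4a5, was at 15.8 and 20.6 in the MEF and at most 0.303 in XEN (-4.01, SE 0.27, adjusted p 0.000242).

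Of the 15 tested genes of collagen IV and its basement membrane partners 8 were shared (53.3%, against 34.1% of all genes) and 6 even (40.0%, against 28.8%). Another 7 of the 22 listed did not pass the filter. The even count includes Col4a1, Col4a2 and Nid1, whose group means average over unlike libraries. Col4a1 ran from 88.6 to 2400, Col4a2 from 65.0 to 1542 and Nid1 from 42 to 713. The even share is therefore not a measure of equal levels. The other even genes, Sparc, Hspg2 and Pxdn, varied less between libraries. Sparc, a collagen-binding glycoprotein, was at 1380 and 2473 in the MEF, 2726 and 2748 in CeXEN, and 1512 and 6210 in eXEN, among the highest of the matrix genes everywhere (0.65, 95% interval -0.68 to 1.98). Hspg2, which encodes perlecan, was at 122 and 133 in the MEF and 28.9 to 169 in XEN, and Pxdn, the peroxidase that cross-links collagen IV, at 51.2 and 76.4 against 88.3 to 135. Nid1, the nidogen that links laminin to collagen IV, was at 180 and 130 in the MEF, 55.1 and 42 in CeXEN, 50.3 in eXEN 1 and 713 in eXEN 2. Without eXEN 2 it was called lower in XEN (-1.63, adjusted p 0.0117). Nid2 was at 25.2 and 33.6 in the MEF, 98.3 and 68.7 in CeXEN, and 125 and 431 in eXEN, above the MEF in every XEN library but short of the threshold (2.21, SE 0.69, adjusted p 0.0677). Without CeXEN 2 or eXEN 2 it passed (adjusted p 0.0428 and 0.0204).

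Of the same 15 genes 5 were called lower (33.3%, against 12.0% of all genes) and 1 higher (6.67%, against 6.92%). Among the lower were Col18a1, whose collagen carries endostatin (23.3 and 79.3 in the MEF, 0.107 to 2.80 in XEN), Smoc2 and the nephronectin gene Npnt. The call of Col18a1 was lost without MEF 2 (adjusted p 0.0721). The only higher call was Egflam, which encodes pikachurin, at 0.268 and 0.794 in the MEF and 4.07 to 32.8 in XEN (3.19, SE 0.70, adjusted p 0.02). It was lost without MEF 1 (0.167), MEF 2 (0.131), CeXEN 1 (0.0501) or eXEN 1 (0.0503).

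**Figure D3:**
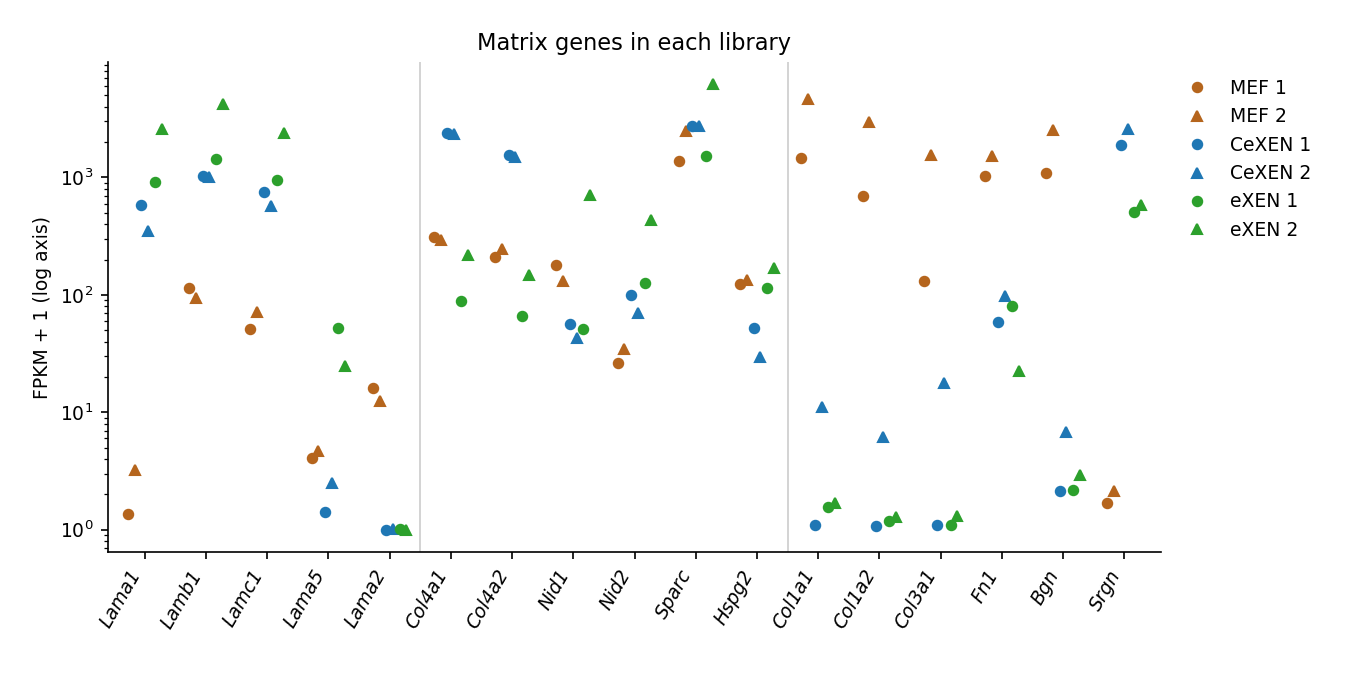
FPKM + 1 on a log axis for 17 matrix genes in each of the 6 libraries (circle, replicate 1; triangle, replicate 2). The left block holds laminin chains, the middle block collagen IV and partners, and the right block interstitial matrix and Srgn. Col4a1 and Col4a2 lie above the MEF in CeXEN and below them in eXEN.

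Of 9 tested fibrillar collagen genes 8 were called lower in XEN (88.9%, against 12.0% of all genes) and none higher. Their median difference was -7.55, and 8 were also called lower without CeXEN 2. The ninth, Col27a1, was not called, at 3.28 and 3.17 in the MEF and 3.66 to 11.7 in XEN (0.86, adjusted p 0.229), and 2 of the 11 listed did not pass the filter. Col1a1 had an FPKM of 1467 and 4659 in the MEF, 0.106 in CeXEN 1, 10.1 in CeXEN 2, and 0.573 and 0.676 in eXEN (-10.10, SE 0.97, adjusted p 0.000795). Col1a2 followed with 693 and 2984 against 0.0856, 5.16, 0.188 and 0.280. Col3a1 was at 130 and 1563 in the MEF and at 0.0888, 16.8, 0.102 and 0.312 in XEN, and its call was lost without MEF 2 (adjusted p 0.133). CeXEN 2 was the highest XEN library for each of these 3, and all 3 are among the fibroblast markers. Col5a1 and Col5a2, whose collagen V starts fibril assembly, differed by -7.55 and -8.30.

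The other parts of the interstitial matrix were lower too. Of 9 tested other collagens 7 were called lower (77.8%, against 12.0% of all genes). Examples were Col12a1 (291 and 532 in the MEF, at most 0.805 in XEN), Col6a3 (76.0 and 453, at most 1.10) and Col8a1 (60.6 and 60.4, at most 0.0372). Of 17 elastic fibre genes 13 were called lower (76.5%, against 12.0% of all genes). Among them were fibrillin-1 (Fbn1, -6.20), Fbln5 (-5.72) and Mfap4, which was listed at 0 in all 4 XEN libraries. Efemp2, which encodes the fibulin that guides lysyl oxidase to elastin, was lower but shared, at 184 and 189 against 33.9 to 79.7 (-1.88, adjusted p 0.0112), and its call was lost without MEF 1 (0.0866) or MEF 2 (0.0940). Of 15 matricellular proteins and glycoproteins 12 were called lower (80%, against 12.0% of all genes) and none higher. Thbs1 was at 2377 and 1163 in the MEF and at most 2.58 in XEN, Tnc at 702 and 359 against at most 1.73, and Postn at 107 and 648 against at most 0.501.

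Fibronectin was lower in XEN while still well detected. Fn1 had an FPKM of 1037 and 1538 in the MEF, 57.3 and 97.8 in CeXEN, and 79.6 and 21.5 in eXEN. It counted as shared while it fell by 4.47 (SE 0.59, adjusted p 0.00279). Without MEF 2 the adjusted p was 0.0506. Fbln1, a fibulin of both matrix types, was even on average, at 33.5 and 82.1 in the MEF, 130 and 296 in CeXEN, 244 in eXEN 1 and 12.6 in eXEN 2, and without eXEN 2 it was called higher (1.98, adjusted p 0.0438).

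Among 10 tested proteoglycans 7 were called lower (70%, against 12.0% of all genes) and 1 higher (10%, against 6.92%). Bgn, which encodes biglycan, a small leucine-rich proteoglycan of collagen fibrils, was at 1084 and 2513 in the MEF and at most 5.84 in XEN (-9.06, SE 0.57, adjusted p 0.000215). Dcn was at 16.7 and 48.3 against at most 3.67 (-4.26), a call lost without MEF 2 (adjusted p 0.107), and Lum at 1.32 and 12.5 against at most 0.832 missed the threshold (adjusted p 0.0653) except without MEF 1 (0.00649). The one higher gene, Srgn (chr10:62493833-62527451), encodes serglycin, a proteoglycan of secretory granules. It was at 0.705 and 1.14 in the MEF, 1885 and 2563 in CeXEN, and 512 and 582 in eXEN. Its rise of 9.16 (SE 0.70, adjusted p 0.000348) was the largest of the members of the 18 lists, and it was 2.01 higher in CeXEN than in eXEN (adjusted p 0.0323). That second call was lost without any 1 of the 6 libraries (adjusted p 0.0542 to 0.198).

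Of 29 tested genes of collagen synthesis and cross-linking 6 were called higher in XEN (20.7%, against 6.92% of all genes). Another 12 were called lower (41.4%, against 12.0%) and 11 neither. Shared genes numbered 15 (51.7%, against 34.1% of all genes), and the 9 even ones (31%) were near the 28.8% of all genes. The even ones included genes that fold and export collagen. Serpinh1, the gene of the collagen chaperone HSP47, was at 1151 and 1644 in the MEF, 2061 and 2061 in CeXEN, and 1168 and 1364 in eXEN, a difference of 0.23 (95% interval -0.58 to 1.04) whose sign changed under rescaling to equal sums (-0.05) and quantile normalization (-0.27). Mia3, which encodes the cargo receptor TANGO1, was at 77.5 and 159 in the MEF and 88.6 to 127 in XEN (-0.14, -0.95 to 0.66). Sec24d, a coat subunit of its carriers, was at 39.7 and 63.8 against 36.4 to 56.0 (-0.24, -0.95 to 0.47). Crtap was at 108 and 106 against 66.8 to 117 (-0.20, -0.86 to 0.46). P3h1 and Ppib, its partners in the prolyl 3-hydroxylase complex, differed by 0.78 (-0.13 to 1.69) and 0.91 (-0.26 to 2.08), and the collagen galactosyltransferase gene Colgalt1 by 0.58 (0.08 to 1.08). The intervals of Ppib, P3h1, Serpinh1 and Colgalt1 reach past 1, so that differences above 1 are not excluded for them.

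Hydroxylase genes made up the 6 higher calls of this list. The count of 6 became 3 without MEF 1 or CeXEN 1 and after rescaling to equal sums, and 4 without MEF 2 or CeXEN 2. Plod2, the lysyl hydroxylase of collagen telopeptides, was at 14.7 and 31.9 in the MEF, 369 and 343 in CeXEN, and 254 and 559 in eXEN (4.02, SE 0.42, adjusted p 0.00107). P4ha2, a catalytic subunit of prolyl 4-hydroxylase, was at 46.0 and 56.2 in the MEF, 403 and 317 in CeXEN, and 388 and 387 in eXEN (2.85, SE 0.23, adjusted p 0.000398). P3h2, whose enzyme prefers collagen IV, was at 1.72 and 1.08 in the MEF and 15.6 to 32.2 in XEN (3.29, SE 0.36, adjusted p 0.0013). In each of the 3 genes the lowest XEN library was more than the highest MEF library, and each was called without any single library.

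Other hydroxylase genes were called less firmly. P4ha1 (1.72, adjusted p 0.0366) was at 66.8 and 105 in the MEF and 161 to 466 in XEN, and Plod1 (1.6, adjusted p 0.0258) at 26.2 and 58.1 against 87.3 to 143. P4hb, the subunit common to the prolyl 4-hydroxylases, was at 541 and 636 against 1019 to 1785 (1.17, adjusted p 0.0318). The P4ha1 call was lost without MEF 1 (0.239), MEF 2 (0.127), CeXEN 1 (0.0876) or CeXEN 2 (0.0549). The Plod1 call was lost without MEF 1 (0.143), CeXEN 1 (0.0696) or CeXEN 2 (0.0504), and the P4hb call without MEF 1 (0.190), MEF 2 (0.138) or CeXEN 1 (0.0791). Under rescaling to equal sums none of the 3 was called. Their family members P3h3 (37.1 and 60.7 in the MEF, 1.15 to 1.74 in XEN) and P4ha3 (28.7 and 39.2 against 0.559 to 8.43) were called lower, the latter not without MEF 1 (0.16), MEF 2 (0.22) or eXEN 2 (0.0550).

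Most genes of cross-linking and processing outside the cell that are named here were lower in XEN. Lox, the lysyl oxidase of fibrillar collagen and elastin, was at 585 and 612 in the MEF and at 0.0740, 0.618, 0.0534 and 0.204 in XEN (-8.94, SE 0.30, adjusted p 4.2e-05). Loxl1 (-7.11), Loxl3 (-5.36) and Loxl4 (-4.16) were lower as well. Loxl2, whose enzyme acts on collagen IV, was the exception, at 136 and 132 in the MEF, 167 and 213 in CeXEN, and 211 and 316 in eXEN (0.72, 95% interval 0.02 to 1.41). Pcolce, the enhancer of procollagen processing, was at 171 and 430 in the MEF and at most 5.72 in XEN, and Bmp1, the procollagen C-proteinase, at 69.7 and 106 against 8.46 to 14.5 (-2.83). Inside the cell, Fkbp10, a chaperone of procollagen I, was at 195 and 175 against at most 6.54 (-5.97).

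**Figure D4:**
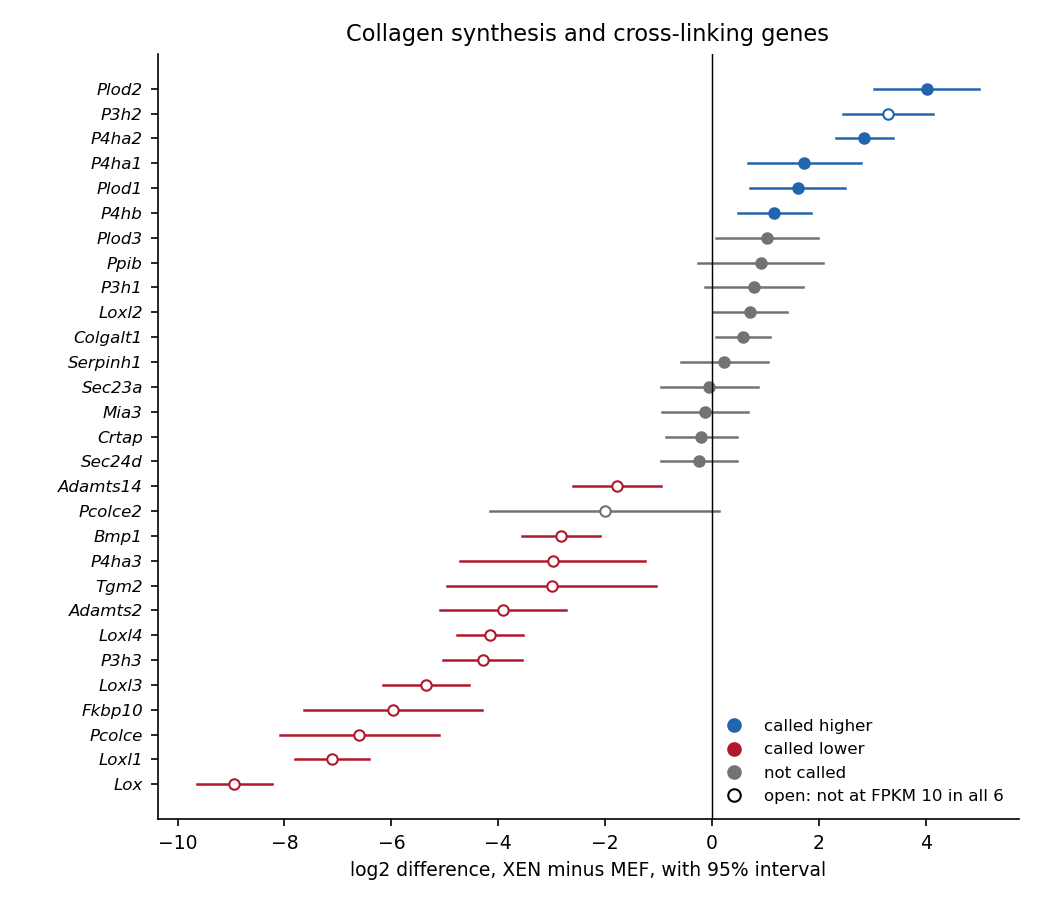
Log2 differences, XEN minus MEF, with their 95% intervals from the limma fit, for the 29 tested genes of collagen synthesis and cross-linking. Filled points are shared genes, open points are under FPKM 10 in some library. Plod2, P3h2 and P4ha2 lie highest, and Lox and Loxl1 lowest.

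Matrix receptors were lower in XEN in 14 of 26 tested cases (54%, against 12.0% of all genes) and higher in 1 (3.85%, against 6.92%). Itgb1, the beta subunit common to most matrix integrins, was at 593 and 425 in the MEF and 71.5 to 144 in XEN (-2.39, SE 0.34, adjusted p 0.00383), and still shared. The collagen receptors Ddr2 (45.8 and 94.3 against at most 0.234) and Itga11 (13.3 and 164 against at most 0.0803) were high in the MEF, as was the syndecan gene Sdc2 (71.1 and 54.7 against at most 1.41). Itga3, whose integrin binds laminins, was the one higher gene, at 5.87 and 2.87 in the MEF and 17.2 to 32.7 in XEN (2.15, SE 0.38, adjusted p 0.00879), a call lost without MEF 2 (0.0793). Dag1, the gene of the laminin receptor dystroglycan, was even, at 41.8 and 65.6 against 24.5 to 41.3.

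Of 27 proteases and inhibitors 16 were called lower (59.3%, against 12.0% of all genes) and 2 higher (7.41%, near the 6.92% of all genes). Mmp14, the membrane-bound collagenase, was at 358 and 389 in the MEF and at most 3.13 in XEN (-7.66). Adamts9, a secreted protease of the versican-cleaving group, was at 4.17 and 3.73 in the MEF and 29.5 to 125 in XEN (3.66, SE 0.53, adjusted p 0.00416). Without MEF 1 or MEF 2 its adjusted p was 0.0530 and 0.0593. Ctsl, the lysosomal cathepsin L, was at 238 and 213 in the MEF, 1412 and 1319 in CeXEN, and 419 and 746 in eXEN (1.95, adjusted p 0.0377). It was called without eXEN 1 but not without any other single library (0.0537 to 0.228), nor with the replicate number as a block (0.0666).

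The inhibitors of metalloproteinases stayed detectable in XEN. Timp1 was at 850 and 157 in the MEF and 35.8 to 81.1 in XEN (-2.74, adjusted p 0.0286), lost without MEF 1 (0.130), eXEN 1 (0.0693) or eXEN 2 (0.0516). Timp2 was at 257 and 195 against 31.6 to 171 (-1.52, adjusted p 0.138), and it was called without eXEN 2 (0.0451). Timp3 was at 103 and 128 against 6.15 to 56.4 (-2.23, adjusted p 0.101), below the MEF in all 4 XEN libraries.

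Signalling genes were split less one-sidedly. Of 143 tested, 57 were called lower (39.9%, against 12.0% of all genes), 14 higher (9.79%, against 6.92%) and 72 neither, with a median of -1.32. The count of higher calls was 8 without MEF 1 and 7 without MEF 2, and 13 without CeXEN 2. Shared genes numbered 11 (7.69%, against 34.1% of all genes) and even ones 7 (4.90%, against 28.8% of all genes).

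Of 23 tested genes of PDGF, EGF, IGF and related signalling 1 was called higher in XEN (4.35%, against 6.92% of all genes) and 10 lower (43.5%, against 12.0%). Pdgfrb, the PDGF receptor of mesenchymal cells, was at 40.6 and 153 in the MEF and at most 0.491 in XEN (-6.00, SE 0.53, adjusted p 0.000565). Pdgfra, which also marks primitive endoderm, was at 8.22 and 56.5 in the MEF, 157 and 187 in CeXEN, and 88.1 and 89.2 in eXEN. All 4 XEN values of Pdgfra lay above both MEF values, yet the MEF libraries differed so much that the difference of 2.43 (SE 0.72) had an adjusted p of 0.0579. It was called without MEF 2 (3.75, 0.0158). Kit, the stem cell factor receptor, was at 0.264 and 0.102 in the MEF, 144 and 165 in CeXEN, and 51.5 and 66.2 in eXEN (6.35, SE 0.52, adjusted p 0.000437). Axl (-7.18) and Egfr (-4.50) were lower in XEN.

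Among the ligands of this list some were lower in XEN and others were not called. Csf1, the macrophage growth factor, was at 479 and 73.4 in the MEF and 2.06 to 4.86 in XEN (-5.65), beside macrophage markers that were also higher in the MEF, whose part in it was not tested. Pdgfc was at 18.4 and 28.7 against at most 0.687 (-4.15). Vegfa, the endothelial growth factor gene, was even, at 36.5 and 43.1 in the MEF and 53.4 to 161 in XEN (0.97, adjusted p 0.193). Igf2 was at 634 and 658 in the MEF, 31.3 and 202 in CeXEN, and 17.1 and 1.48 in eXEN, a difference of -4.79 (SE 1.5, adjusted p 0.0695) that was called without CeXEN 2 (0.0143) or eXEN 2 (0.0459). Igfbp7, an IGF binding protein of the matrix, was at 689 and 765 against at most 2.72 (-8.71, SE 0.48, adjusted p 0.000176). Of 7 tested IGF binding proteins 3 were called lower (42.9%, against 12.0% of all genes).

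Among FGF receptor genes Fgfr4 was called higher in XEN, and Fgfr1 and Fgfr2 lower. Fgfr4 was at 0.321 and 0.0433 in the MEF, 48.6 and 46.2 in CeXEN, and 55.9 and 40.9 in eXEN (5.37, SE 0.27, adjusted p 0.000126). Fgfr1 was at 107 and 76.7 in the MEF, 2.30 and 8.77 in CeXEN, and 2.82 and 0.270 in eXEN (-4.70, SE 0.74, adjusted p 0.00563), a call lost without MEF 1 (0.0817) or MEF 2 (0.0643). Fgfr2 was lower as well (-3.30). Among the ligands Fgf3, of which both MEF libraries were listed at 0, reached 49.8 and 44.2 in CeXEN and, in eXEN, 16.1 and 20.0 (4.91, adjusted p 0.0011), while Fgf7, a mesenchymal factor for epithelia, was at 33.5 and 10 in the MEF and at most 0.228 in XEN. The list held 2 higher calls among 17 genes (11.8%, against 6.92% of all genes) and 6 lower (35.3%, against 12.0%). Fewer were called lower without MEF 1 or without MEF 2. Added bFGF was in the medium of CeXEN and eXEN 1 and is not named for eXEN 2.

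In the TGF beta family the ligand genes named here differed. Of the receptor genes named, 2 gave no call and Acvr2b, given below, was called higher. All 3 TGF beta ligand genes were lower in XEN: Tgfb1 (45.9 and 37.9 in the MEF, 0.943 to 11.0 in XEN), Tgfb2 (13.4 and 11.8, at most 0.751) and Tgfb3 (113 and 73.5, at most 0.201). The call of Tgfb1 was lost without MEF 1 (0.157) or MEF 2 (0.142). Inhba, an activin subunit, was at 394 and 30.4 in the MEF and at most 0.129 in XEN (-6.69, SE 0.89, adjusted p 0.0029). The receptor genes Tgfbr1 (9.46 and 11.6 against 9.39 to 13.6; 0.12, 95% interval -0.54 to 0.78) and Bmpr1a (17.9 and 37.9 against 27.6 to 30.6; 0.13, -0.65 to 0.90) gave no call, and the sign of both turned under rescaling to equal sums (-0.14 each).

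Bmp2 rose in XEN, as did the gene of an antagonist. Bmp2 was at 0.298 and 0.161 in the MEF and 6.61 to 25.3 in XEN (3.77, SE 0.55, adjusted p 0.00412), and Nog, the secreted BMP antagonist noggin, at 5.70 and 1.63 in the MEF, 133 and 117 in CeXEN, and 22.9 and 25.1 in eXEN (3.74, SE 0.86, adjusted p 0.024). Both calls were lost without MEF 1 (0.0521 and 0.103) or MEF 2 (0.0596 and 0.219). Acvr2b, a type II receptor, was at 1.06 and 0.543 against 8.24 to 13.8 (2.70, adjusted p 0.00174). Id3, a target of BMP signalling, was at 288 and 152 in the MEF and 4.09 to 20.9 in XEN (-4.27, adjusted p 0.00621), lost without MEF 1 (0.0899) or MEF 2 (0.0532), and the follistatin-like gene Fstl1 at 392 and 609 against 2.70 to 22.5 (-5.43), lost without MEF 2 (0.0630). The family gave 4 higher calls among 33 genes (12.1%, against 6.92% of all genes) and 15 lower (45.45%, against 12.0%). Fewer were called higher without MEF 1 or without MEF 2.

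**Figure D5:**
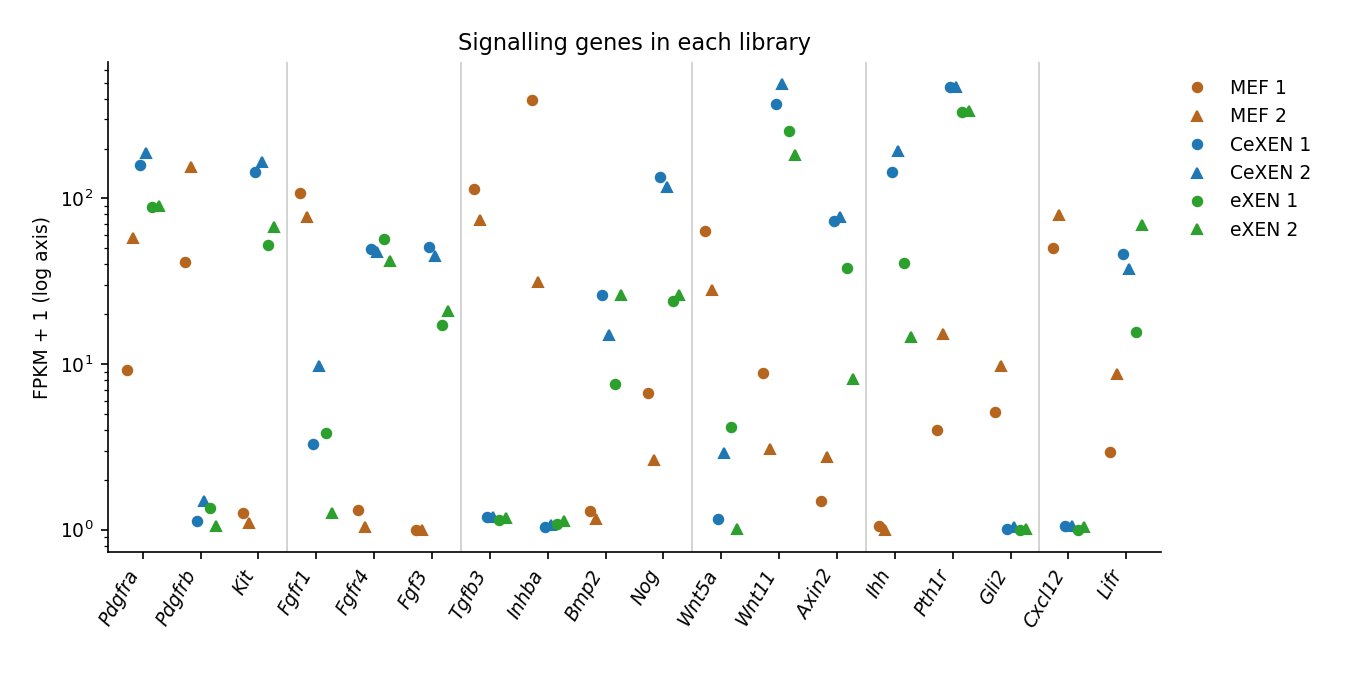
FPKM + 1 on a log axis for 18 signalling genes in each of the 6 libraries (circle, replicate 1; triangle, replicate 2), in blocks of growth factor receptors, FGF, TGF beta and BMP, Wnt, hedgehog and parathyroid hormone, and cytokines. Pdgfra and Pdgfrb, Fgfr4 and Fgfr1, and Wnt11 and Wnt5a lie on opposite sides of the 2 cell types.

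Wnt signalling held 2 higher calls among 30 tested genes (6.67%, against 6.92% of all genes) and 8 lower (26.7%, against 12.0%), with 4 lower calls without MEF 1, MEF 2 or CeXEN 1. The ligand gene Wnt11 was at 7.88 and 2.06 in the MEF, 370 and 487 in CeXEN, and 254 and 183 in eXEN (5.86, SE 0.54, adjusted p 0.00067). Another ligand gene, Wnt5a, was at 62.8 and 27.2 in the MEF and 0.0170 to 3.15 in XEN (-4.45, SE 0.68, adjusted p 0.00507), a call lost without MEF 1 (0.0718). Both act largely outside the beta-catenin branch. Axin2, a target of that branch, was at 0.495 and 1.75 in the MEF, 71.6 and 76.2 in CeXEN, 36.8 in eXEN 1 and 7.18 in eXEN 2 (4.16, adjusted p 0.0203), lost without MEF 1 (0.179), MEF 2 (0.126) or eXEN 1 (0.0517). The medium of eXEN 2, the lowest of these, differs from that of the other 3. The co-receptor gene Lrp6 was even, at 13.8 and 20.0 against 16.8 to 24.2 (0.32, 95% interval -0.36 to 1.00).

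Ihh and Pth1r, which are both endodermal in the early embryo, were on the XEN side. Ihh was at 0.0518 and 0 in the MEF, 143 and 194 in CeXEN, and 39.9 and 13.6 in eXEN (5.96, SE 1.01, adjusted p 0.00768), lost without MEF 1 (0.0884) or MEF 2 (0.0943). Pth1r, the receptor through which parathyroid hormone-related peptide acts on parietal endoderm, was at 3.01 and 14.2 in the MEF, 470 and 466 in CeXEN, and 329 and 334 in eXEN (5.66, SE 0.52, adjusted p 0.000646). The transcription factor genes of the hedgehog pathway, Gli2 (4.12 and 8.77 against at most 0.0425) and Gli3 (9.94 and 13.4 against at most 1.12), were on the MEF side. Of 9 tested genes of these pathways 2 were called higher (22.2%, against 6.92% of all genes) and 3 lower (33.3%, against 12.0%).

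Notch genes gave 1 higher call among 10 (10%, against 6.92% of all genes) and 3 lower (30%, against 12.0%). The ligand gene Jag1 was at 42.3 and 38.2 in the MEF and 0.101 to 2.61 in XEN (-4.48, adjusted p 0.00195). Hes1, a target of the pathway among others, was at 86.4 and 43.8 against 149 to 272 (1.62, adjusted p 0.0236), lost without MEF 2 (0.167) or CeXEN 1 (0.0626) and under rescaling to equal sums (0.0626).

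Of 14 tested cytokine and chemokine genes, their receptors included, 9 were called lower in XEN (64.3%, against 12.0% of all genes). Another 2 were called higher (14.3%, against 6.92%). Ccl2, which attracts monocytes, was at 373 and 42.6 in the MEF and at most 2.89 in XEN (-6.29), and Cxcl12 at 49.4 and 78.6 against at most 0.0548 (-5.94, SE 0.30, adjusted p 0.000126). Lifr, the receptor of leukaemia inhibitory factor, was at 1.95 and 7.77 in the MEF, 45.5 and 36.3 in CeXEN, and 14.5 and 68.2 in eXEN (2.86, SE 0.67, adjusted p 0.0263). It was lost without MEF 1 (0.213), MEF 2 (0.0688) or CeXEN 1 (0.0648).

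The XEN sources were compared 2 libraries against 2. Of 13388 genes, 175 were called higher (1.31%) and 57 lower (0.426%) in CeXEN than in eXEN, and with all 21 libraries in the fit 721 and 456. The counts were 0 without MEF 1 and 0 without MEF 2 (limma, with 1885 and 1894 genes at an unadjusted p under 0.05), where fewer libraries estimate the spread. Without CeXEN 2 they were 12 and 5, without eXEN 1 63 and 11, without eXEN 2 7 and 3, and without CeXEN 1 232 and 20. Among the 165 matrix genes 6 were called higher in CeXEN and 2 lower. Among matrix genes Lama5, the alpha chain of many epithelial basement membranes, went the other way from collagen IV: it was at 3.08 and 3.64 in the MEF, 0.428 and 1.49 in CeXEN, and 50.8 and 24 in eXEN. It was 4.26 lower in CeXEN than in eXEN (-4.26, SE 0.48, adjusted p 0.0159), with an adjusted p of 0.0616 to 0.109 without any 1 library other than CeXEN 1. Against the MEF alone Lama5 was higher in eXEN (3.05, adjusted p 0.0159) and stood at -1.21 in CeXEN (adjusted p 0.0933).

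The same line in 2 media, with 1 library each and no test, differed in basement membrane genes in both directions. In eXEN 2, kept in conventional medium, Lama1, Lamb1, Lamc1, Nid1, Nid2 and Sparc had higher FPKM than in eXEN 1, kept in stage 1 medium (2587 and 921 for Lama1, 713 and 50.3 for Nid1). Lama5 (24 and 50.8), the agrin gene Agrn (32.9 and 64.2), Egflam (4.07 and 12.8) and Col18a1 (0.107 and 2.38) had lower FPKM in eXEN 2. Laminins took 1.56% of FPKM in eXEN 2 and 0.514% in eXEN 1, and collagen IV with its partners 1.37% and 0.332%. The collagen synthesis genes took 0.925% and 0.663%.

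Over all genes, the 5 highest differences among called genes whose groups did not overlap, and which averaged FPKM 20 or more in a group, were Srgn (9.16), the water channel gene Aqp8 (8.67), Lama1 (8.64), the transcription coregulator gene Cited1 (8.57) and Gata4 (8.55). The 5 lowest were Acta2 (-10.98), Col1a1 (-10.10), Tagln (-9.79), Col1a2 (-9.65) and Thbs1 (-9.57). Members of the matrix lists, 165 of the 13388 tested genes, thus made up 2 of the 5 highest and 3 of the 5 lowest. Of the 2 highest, Srgn encodes a proteoglycan of secretory granules. These extremes were picked by their values and are not a test of the lists.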

How the data were processed

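RNA was extracted and sequenced in 21 libraries with RNeasy and NEBNext Ultra kits, per the labels' protocols. The deposited files hold FPKM values, which the authors made with TopHat and Cufflinks on mm10, per the submitters' processing notes (versions are not given in the sources used here). FPKM of gene IDs with several loci were added, and 7 tested genes with a quantifier status other than OK in at least 1 of the 6 libraries were kept. Values were analysed as log2(FPKM + 1) in limma 3.58.1 (R 4.3.3) with an intensity trend, the 4 XEN against the 2 MEF libraries (4 residual degrees of freedom), or as 3 groups for CeXEN against eXEN. On simulated data with 100 genes changed at each size, of 13388, 93% of differences of 4 and 55% of differences of 2 log2 units were found. In the same data 5 unchanged genes were called. The simulated spread left out the difference between CeXEN and eXEN, which the real fit keeps. Changed genes were drawn only from those with a mean log2 value above 3. The shares found may thus be higher than in the real comparison. Precision is limited by the number of libraries. The members and lists were chosen with earlier results of these data known. Named genes are 30 fixed ones, up to 4 called members at each end of a list (mean FPKM of at least 5 in a group), up to 4 even members with the highest minimum, and the 5 extremes at each end over all genes (without predicted genes, small RNAs or clone names), of which some are given. Genes outside that rule were chosen after their values were seen. Alternatives changed the pseudocount, filter, scaling, model and libraries. Promoter sequences are RefSeq's, GRCm38.p6. Python 3.11.15 was used for the rest.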

Additional observations from a re-analysis of the deposited data

Results flagged for a closer look

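In 4 genes, 1 XEN library stood apart from the other 3 by Dixon's criterion on the log2(FPKM + 1) scale, which chance meets in about 1 of 20 groups. The named genes (126 tested) were screened, apart from those of low FPKM in every XEN library. Several such hits would therefore arise by chance alone. Nid1 had an FPKM of 713 in eXEN 2, against 42 to 55.1 in the other XEN libraries. Col1a2 was at 5.16 in CeXEN 2, against 0.0856 to 0.280, and Col3a1 at 16.8 in CeXEN 2, against 0.0888 to 0.312. Colgalt1 was at 96.7 in eXEN 2, against 114 to 115.

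In 4 further genes the XEN sources differed by the test of the difference itself (limma, 3 groups, adjusted over 13388 genes). CeXEN was higher than eXEN by 4.09 log2 units for Col4a1, by 3.95 for Col4a2 and by 2.01 for Srgn, and stood at -4.26 for Lama5. The Srgn difference did not pass without any 1 of the 6 libraries (adjusted p 0.0542 to 0.198), nor did those of Col4a1 and Col4a2 without either MEF library or CeXEN 2. That of Lama5 passed only without CeXEN 1 among these leave-outs.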

How the results depend on the processing

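The genes called higher in XEN (927) numbered 351 to 1103 when 1 library was left out and 1741 with all 21 libraries in the fit. Those called lower (1602) numbered 1055 to 1562 and, with a filter at FPKM 5, 989. Matrix genes called higher (14) numbered 7 to 17 with 1 library left out, 23 with all 21 libraries and 22 with CeXEN alone, and signalling genes called higher (14) numbered 7 to 16, 25 with all 21 libraries and 9 with no filter. Genes shared at FPKM 10 (4561) numbered 2643 at FPKM 20. For CeXEN against eXEN, 175 higher and 57 lower calls became 721 and 456 with all 21 libraries, 111 and 32 with the replicate block, and 0 to 232 and 0 to 20 with 1 library left out. The matrix share difference of -2.64 percentage points ranged from -3.56 to -1.72.

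Same-numbered libraries showed little common deviation (r 0.0561, 0.0572 and -0.0960 for the 3 pairs of groups). With 2 libraries a group, and different media for the eXEN ones, this cannot tell whether the numbers pair them. With the replicate block 730 genes were called higher and 1422 lower. The blocked calls of P4ha3 (adjusted p 0.0524) and Ctsl (0.0666) were lost.

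Of 126 named genes 96 were called, 66 of them under each of 19 alternatives, and 0 called ones changed direction. Many of these genes were named because they were called, so these counts do not describe genes at large. Of all tested genes 18.9% were called. Signs turned for genes that were not called. With eXEN alone they became -1.11 for Col4a1, -1.21 for Col4a2, 0.31 for Nid1, 0.0226 for Mia3, 0.13 for Hspg2 and -0.12 for Serpinh1. With CeXEN alone they became -1.21 for Lama5 and -0.0560 for Tgfbr1. After rescaling to equal sums they became -0.0492 for Serpinh1, -0.14 for Bmpr1a and -0.14 for Tgfbr1, and after quantile normalization -0.27 for Serpinh1 and -0.0297 for Bmpr1a. With 1 library left out, Serpinh1 ranged from -0.0275 (without MEF 1) to 0.49, Bmpr1a from -0.40 (MEF 1) to 0.65, Tgfbr1 from -0.0160 (MEF 1) to 0.26, Mia3 from -0.66 to 0.37 (MEF 2) and Sec24d from -0.575 to 0.10 (MEF 2). The cause was not tested. With 2 MEF libraries, a call without either rests on a lone sample assumed to vary like the XEN libraries. Low FPKM rest on few fragments, so that changes of low genes are limited by depth.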

Other observations

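The 8 epithelial markers summed to an FPKM of 47.3 and 9.76 in the MEF, 1263 and 1450 in CeXEN, and 327 and 345 in eXEN. Of the 6 tested, the keratin genes Krt8 and Krt18 were called higher in XEN (limma, adjusted p under 0.05), and 4 were not called. The higher calls were 33.3% of these, against 6.92% of all genes. Visceral endoderm markers summed to 3.40 and 2.05 in the MEF, 160 and 221 in CeXEN, and 87.1 and 35.5 in eXEN. Of 7 tested 3 were called higher (42.9%, against 6.92% of all genes). Pluripotent cell markers summed to 22.5 and 51.9 in CeXEN and, in eXEN, to 1.6 and 6.47, against 4515 to 5725 in the ESC and CiPSC libraries.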
